A study of Mus musculus with 12 samples.

Results

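Klf2, Klf4, Klf5, Klf6 and Klf7 are the activator-type members of the Krüppel-like factor (KLF) family, a family of zinc finger transcription factors, and Klf4 was the gene targeted by siRNA here. The members were the genes of exactly these names, and all 5 were found among the 12786 genes measured, in every sample and in all 3 pairwise comparisons. RNA was sequenced from GT1-7 cells, an immortalised mouse line of hypothalamic neurons that make gonadotropin-releasing hormone (GnRH), in 12 samples forming 3 groups of 4. The Klf4 siRNA group was transfected with an siRNA against Klf4 for 24 h in Opti-MEM I with lipofectamine 2000, and the Scramble group had a non-targeting siRNA under the same conditions. The Vehicle group was deprived of serum for 6 h and then kept in DMEM without Ca2+ for 1 h, and no transfection is described for it. Each siRNA is therefore represented by 1 group, in 1 cell line. As far as described, Scramble differs from Vehicle in the siRNA, the lipofectamine 2000, the 24 h of transfection, the medium, serum deprivation and Ca2+. These cannot be told apart. Nothing says that replicate samples came from separate cultures, so the p-values measure the spread between these samples, which may be technical.

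KLF proteins bind GC-rich and CACCC-type DNA elements through zinc fingers at the C-terminal end, and the activator subgroup recruits acetyltransferases such as p300, CBP and PCAF. In rodent neurons KLF4 is known as a brake on axon growth, whereas KLF6 and KLF7 promote it, in zebrafish too. KLF2 and KLF4 are best known from endothelium, where flow and the MEK5, ERK5 and MEF2 kinase route induce both, and KLF5 from proliferating epithelium and smooth muscle.

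The genes lie on 5 chromosomes. In GRCm38, the assembly behind the mm10 build, GENCODE M21 places Klf2 at chr8:72319033-72321656 (plus strand), Klf4 at chr4:55527143-55532466 (minus strand), Klf5 at chr14:99298691-99315036 (plus strand), Klf6 at chr13:5861482-5870394 (plus strand) and Klf7 at chr1:64029447-64122282 (minus strand). The results turn on the levels of these transcripts, so the RefSeq promoter windows (GRCm38.p6, 250 bases before to 50 after the annotated start) are shown for Klf2 (chr8:72318812-72319111, plus strand), Klf4 (chr4:55532426-55532725, minus strand), Klf6 (chr13:5861239-5861538, plus strand) and Klf7 (chr1:64121340-64121639, minus strand, inside the GENCODE gene). Each is written 5′ to 3′ on the gene's strand, and capitals mark the short words that KLF and SP factors are known to bind, CACCC or GGGCGG, on either strand (GGGTG and CCGCCC when read from the other strand).
Klf2: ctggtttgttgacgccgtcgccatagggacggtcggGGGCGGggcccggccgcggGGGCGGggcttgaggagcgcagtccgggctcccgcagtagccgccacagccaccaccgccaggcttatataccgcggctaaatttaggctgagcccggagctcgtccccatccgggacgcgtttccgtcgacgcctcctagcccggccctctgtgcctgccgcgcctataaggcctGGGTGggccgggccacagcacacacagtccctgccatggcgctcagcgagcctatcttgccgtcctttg
Klf4: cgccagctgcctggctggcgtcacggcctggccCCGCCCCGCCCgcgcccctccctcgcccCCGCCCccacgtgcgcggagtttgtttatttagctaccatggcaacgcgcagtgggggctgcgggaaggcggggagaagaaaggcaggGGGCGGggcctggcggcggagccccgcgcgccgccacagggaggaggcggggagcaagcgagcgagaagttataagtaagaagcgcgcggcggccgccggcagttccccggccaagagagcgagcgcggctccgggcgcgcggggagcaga
Klf6: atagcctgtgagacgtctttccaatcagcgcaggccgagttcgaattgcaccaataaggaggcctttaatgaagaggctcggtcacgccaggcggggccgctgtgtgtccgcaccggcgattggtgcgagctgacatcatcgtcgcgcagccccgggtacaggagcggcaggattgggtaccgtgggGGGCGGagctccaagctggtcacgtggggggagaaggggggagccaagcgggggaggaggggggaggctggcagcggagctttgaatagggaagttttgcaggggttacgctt
Klf7: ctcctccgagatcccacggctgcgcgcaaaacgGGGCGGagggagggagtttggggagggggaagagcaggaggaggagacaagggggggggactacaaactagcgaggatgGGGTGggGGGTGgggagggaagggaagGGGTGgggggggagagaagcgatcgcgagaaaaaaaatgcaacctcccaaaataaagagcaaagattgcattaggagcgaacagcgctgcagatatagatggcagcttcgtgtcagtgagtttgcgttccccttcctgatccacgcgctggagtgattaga

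All 4 windows were richer in G and C than the median of 52.7% over 32851 RefSeq promoters of the same length, at 69.3% for Klf2, 74.3% for Klf4, 63.0% for Klf6 and 58.3% for Klf7. GGGCGG, the GC box, occurred in every one of them, 4 times for Klf4 (one pair overlapping by 1 base), 2 times for Klf2 and 1 time each for Klf6 and Klf7, against 35.7% of all promoters with at least 1 match and 5.49% with 4 or more. CACCC, the GT box, occurred 3 times for Klf7 and 1 time for Klf2, and at least once in 57.5% of all promoters. The Klf6 window held 4 CCAAT words, the element of the factor NF-Y, a number that 1.06% of all promoters reach. The Klf2 window held 1 MEF2-type word, CTAAATTTAG, at -118 bases from the start, against 3.19% of all promoters. No window held TATAAA or a CArG box, which 13.6% and 1.63% of all promoters hold. Both strands were searched, and such matches describe letters, not bound sites.

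**Figure D1:**
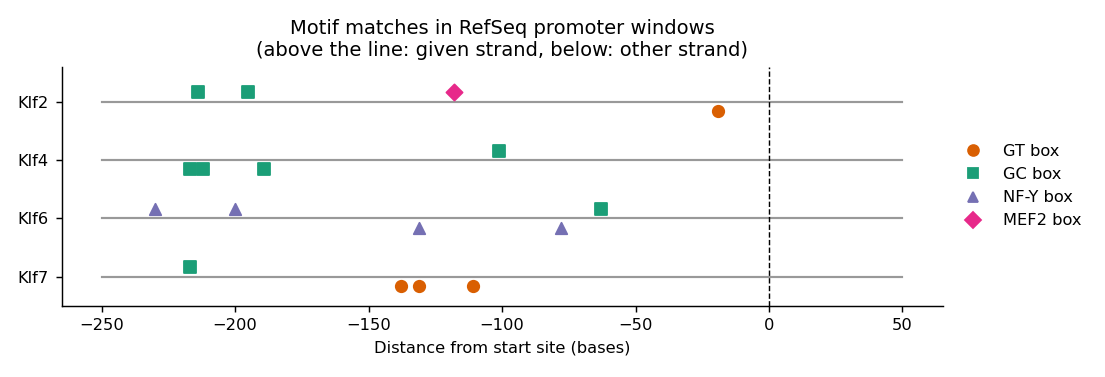
Positions of the short promoter words in the RefSeq windows of Klf2, Klf4, Klf6 and Klf7, in bases from the start site (dashed line); symbols above a line are on the gene's strand and below it on the other strand (GT box for CACCC, GC box for GGGCGG, NF-Y box for CCAAT). The 4 GC boxes of Klf4, the 4 NF-Y boxes of Klf6 and the 3 GT boxes of Klf7 are seen upstream of the start.

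Total counts per sample over the listed genes ran from 30041486 to 33481453 (Klf4 siRNA), 25992363 to 39674984 (Scramble) and 28451562 to 35560442 (Vehicle). Of 10 markers of GnRH neurons 7 were measured, and their summed level was 1353 to 1503 CPM (a count divided by the TMM-scaled library size) for Klf4 siRNA samples, 2364 to 2730 CPM for Scramble and 1474 to 1644 CPM for Vehicle. Gnrh1 made up most of the sum in Scramble (1688 ± 139.5 CPM, against 676 ± 63.6 in Vehicle; SD, n = 4). Dlx5, Kiss1r and Msx1 were also higher in Scramble than in Vehicle (log2 fold changes 0.23, 1.00 and 0.73, adjusted p = 0.0007, 0.00062 and 0.00025 by edgeR). Six6 and Isl1 were lower (log2 fold changes -0.16 and -0.15, adjusted p = 0.0098 and 0.0081 by edgeR), and Otx2 was not called. The calls of Six6 and Isl1 were lost under scaling by total count (adjusted p = 0.0722 and 0.0825 by edgeR). Lower with the Klf4 siRNA than in Scramble were Gnrh1 (log2 fold change -1.175), Dlx5 (-0.55), Msx1 (-0.52), Six6 (-0.47), Otx2 (-0.32) and Isl1 (-0.13). Kiss1r was not called. Of 16 alternatives to the processing, 6 lost this call of Isl1 and 1 that of Msx1. Relative to Vehicle, Six6 (-0.62), Otx2 (-0.43), Dlx5 (-0.32) and Isl1 (-0.275) were lower with the Klf4 siRNA. Kiss1r (0.71) was higher, and Gnrh1 and Msx1 were not called. The 4 general neuron markers measured of 8 summed to 164 to 171 CPM (Klf4 siRNA), 200 to 232 CPM (Scramble) and 119 to 131 CPM (Vehicle). For other brain cells, 2 astrocyte markers of 6 summed to 85.2 to 102 CPM (Klf4 siRNA), 57.9 to 64.8 CPM (Scramble) and 76.8 to 88.0 CPM (Vehicle). Markers of microglia and macrophages, 2 of 7, summed to 31.5 to 35.9 CPM (Klf4 siRNA), 25.5 to 28.3 CPM (Scramble) and 35.6 to 43.3 CPM (Vehicle). They were Csf1r, which made up most of the sum, and Cd68. With the Klf4 siRNA relative to Vehicle, Csf1r was lower (log2 fold change -0.34, adjusted p = 0.00243 by edgeR) and Cd68 higher (1.13, adjusted p = 0.00036 by edgeR). Those of the oligodendrocyte lineage, 2 of 7, summed to 4.61 to 5.04 CPM (Klf4 siRNA), 4.92 to 6.44 CPM (Scramble) and 6.57 to 7.88 CPM (Vehicle), so Vehicle lay above both other groups. Klf4 siRNA samples 1 and 4 stood apart from samples 2 and 3: they held 25825 and 10572 counts of the gene model Gm10800, chosen after its values were seen, where samples 2 and 3 held 687 and 259, Scramble 54 to 238 and Vehicle 78 to 167. Klf2 and Klf5 were lower and Klf6 was higher in Klf4 siRNA samples 1 and 4 than in samples 2 and 3, so values of the members without them are given beside the results. The part of this split in the results was not tested otherwise.

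With the Klf4 siRNA, the targeted gene was lower than in Scramble, Klf2 and Klf6 were higher, Klf5 was slightly lower and Klf7 did not pass the test. In such bulk samples, fewer cells that express a gene and less RNA per cell cannot be told apart. Of the 5 members 4 were called by edgeR's quasi-likelihood test (Benjamini-Hochberg adjusted p under 0.05), 2 higher and 2 lower, where 36.0% of the 12663 genes tested were called, 18.5% higher and 17.5% lower. The 2 groups did not overlap for the same 4 members, as for 34.7% of all genes tested. Without Klf4 siRNA samples 1 and 4 the call of Klf5 was lost, which left 3 members.

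Klf4, a factor of epithelial differentiation and of reprogramming to pluripotency, was the scarcest member per gene length. Its level was 1.34, 0.928, 1.80 and 1.46 CPM in Klf4 siRNA samples 1 to 4, against 4.61, 4.45, 3.55 and 3.43 CPM in Scramble samples 1 to 4. Every Klf4 siRNA sample lay below every Scramble sample, and the highest Klf4 siRNA sample rested on 61 counts. The log2 fold change was -1.53 (SE 0.19, adjusted p = 5.8e-05 by edgeR), so that 34.6% of the Scramble level was left (95% interval 26.6 to 45.0), and Klf4 ranked 28 from the lowest log2 fold change among the 12663 genes. Without Klf4 siRNA samples 1 and 4 the log2 fold change was -1.55 (adjusted p = 0.00054 by edgeR).

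Klf6, an immediate-early factor that responds to injury and activates TGF-beta pathway genes, was the most abundant member per gene length. It was read at 98.9, 92.3, 86.3 and 99.8 CPM in Klf4 siRNA samples 1 to 4, against 58.7, 62.4, 62.4 and 63.8 CPM in Scramble samples 1 to 4. The groups lay far apart relative to their spread, with the lowest Klf4 siRNA sample well above the highest Scramble sample. Klf6 rose 1.53-fold (95% interval 142 to 165% of Scramble; log2 fold change 0.62 ± 0.06 SE, adjusted p = 3.1e-06 by edgeR). The log2 fold change was 0.54 without Klf4 siRNA samples 1 and 4 (adjusted p = 1.1e-05 by edgeR).

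Klf2, the flow-induced factor that keeps endothelium and T cells quiescent, rose to 150% of its Scramble level (95% interval 127 to 178; log2 fold change 0.59 ± 0.13 SE, adjusted p = 0.00285 by edgeR). Its level was 10.1, 13.9, 13.0 and 11.4 CPM in Klf4 siRNA samples 1 to 4, against 6.96, 8.61, 9.57 and 7.36 CPM in Scramble samples 1 to 4. The lowest Klf4 siRNA sample was only a little above the highest Scramble sample. Without Klf4 siRNA samples 1 and 4 the log2 fold change was 0.74 (adjusted p = 0.00068 by edgeR). Of 7 markers of endothelium, the tissue in which Klf2 is best known, 2 were measured, Kdr and Tek. They summed to 15.5 to 20.7 CPM with the Klf4 siRNA and 33.6 to 41.8 CPM in Scramble. Kdr made up most of the sum and averaged 17.4 CPM with the Klf4 siRNA, against 38.0 in Scramble. Tek went the other way at levels near the floor, 0.824 CPM with the Klf4 siRNA and 0.142 in Scramble. Their part in the rise of Klf2 was not tested. The other 5, Pecam1, Cdh5, Flt1, Cldn5 and Vwf, were not analysed here.

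Klf5, a growth-promoting factor of epithelium and smooth muscle, was read at 16.4, 20.2, 19.2 and 17.6 CPM in Klf4 siRNA samples 1 to 4, against 20.4, 23.3, 23.7 and 22.3 CPM in Scramble samples 1 to 4. The highest Klf4 siRNA sample and the lowest Scramble sample nearly touched. Klf5 fell to 82.3% of Scramble (95% interval 73.5 to 92.1; log2 fold change -0.28 ± 0.08 SE, adjusted p = 0.0187 by edgeR). The call was lost without Scramble sample 2 (adjusted p = 0.0635 by edgeR), without Scramble sample 3 (adjusted p = 0.0575 by edgeR) and without Klf4 siRNA samples 1 and 4 (log2 fold change -0.18, adjusted p = 0.112 by edgeR).

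Klf7, a factor of sensory neuron development and axon growth, overlapped between the groups, at 39.8, 41.0, 41.7 and 37.4 CPM in Klf4 siRNA samples 1 to 4 and 39.3, 37.7, 38.1 and 40.3 CPM in Scramble samples 1 to 4. Its log2 fold change was 0.05 (SE 0.05, adjusted p = 0.554 by edgeR), and the 95% interval ran from 95.8 to 111% of the Scramble level. Exons of Klf7 overlap those of Gm26649 on the other strand over 2815 bases, and the library kit does not mark strand, so the level of Klf7 may hold reads of that gene. The other 4 members share no exon position with another gene of the annotation, and no 50-base word occurred in more than 1 member.

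**Figure D2:**
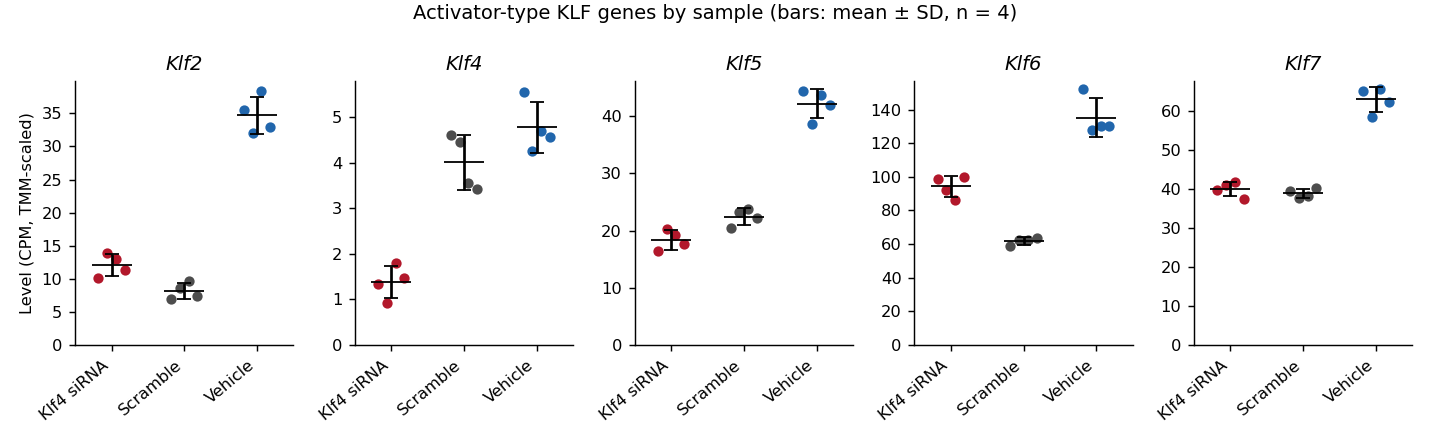
Level of each member in CPM (TMM-scaled, linear axes from 0) in the 4 samples of each group, 1 point per sample, with the mean and SD as bars. Klf4 siRNA samples lie below Scramble for Klf4 and Klf5, above it for Klf2 and Klf6 and among it for Klf7, while Vehicle is highest for Klf2, Klf5, Klf6 and Klf7.

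Vehicle was the group with the most transcript of every member but Klf4, for which it overlapped Scramble. In Scramble relative to Vehicle, 4 of the 5 members were called by edgeR, and all 4 were lower. Of the 12633 genes tested 53.9% were called, 26.6% lower and 27.3% higher, and the share of higher genes among those called was 50.6%, or 61.9% when counts were scaled by the total count only. The groups did not overlap for the same 4 members, as for 48.4% of all genes tested. This comparison shares the Scramble samples with the one above, so they are not independent.

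Klf2 fell most, at a log2 fold change of -2.10 (SE 0.10, adjusted p = 1.9e-09 by edgeR), to 23.3% of Vehicle (95% interval 20.3 to 26.7). The Scramble samples held 6.96 to 9.57 CPM of Klf2, against 35.5, 32.1, 38.3 and 32.9 CPM in Vehicle samples 1 to 4, so the groups were far apart. Klf2 ranked 54 from the lowest log2 fold change among the 12633 genes. The endothelial markers Kdr and Tek summed to 33.6 to 41.8 CPM in Scramble and 47.9 to 54.6 CPM in Vehicle, and their part in the fall of Klf2 was not tested.

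Klf6 fell to 45.8% of Vehicle (95% interval 42.2 to 49.7; log2 fold change -1.13 ± 0.06 SE, adjusted p = 6.3e-09 by edgeR). Its level was 58.7 to 63.8 CPM in Scramble, against 152, 128, 130 and 130 CPM in Vehicle samples 1 to 4, with Vehicle sample 1 above the other 3. Klf5 fell to 53.1% of Vehicle (95% interval 48.5 to 58.2; log2 fold change -0.91 ± 0.07 SE, adjusted p = 1.3e-07 by edgeR), with 20.4 to 23.7 CPM in Scramble, against 44.4, 38.7, 43.8 and 41.9 CPM in Vehicle samples 1 to 4. Klf7 fell to 61.9% of Vehicle (95% interval 57.5 to 66.6; log2 fold change -0.69 ± 0.05 SE, adjusted p = 2.4e-07 by edgeR), with 37.7 to 40.3 CPM in Scramble, against 65.2, 58.5, 65.7 and 62.3 CPM in Vehicle samples 1 to 4. For Klf5 and Klf7, as for Klf2 and Klf6, the highest Scramble sample lay below the lowest Vehicle sample.

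Klf4 itself held 3.43 to 4.61 CPM in Scramble, against 5.56, 4.27, 4.71 and 4.58 CPM in Vehicle samples 1 to 4, so that Scramble samples 1 and 2 lay among the Vehicle samples and Scramble samples 3 and 4 below them. The Scramble level was 84.4% of that in Vehicle (95% interval 69.8 to 102; log2 fold change -0.24 ± 0.14 SE, adjusted p = 0.157 by edgeR). The interval reaches down to 69.8% and holds none of the estimates for Klf2, Klf5, Klf6 and Klf7, which have errors of their own. Compared directly, the within-sample log2 ratio of Klf4 to Klf7 differed by 0.44 between the groups and did not pass (exact permutation p = 0.0571, adjusted p = 0.0635).

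With the Klf4 siRNA relative to Vehicle, all 5 members were lower and called by edgeR, where 45.4% of the 12684 genes tested were called, 21.3% lower and 24.1% higher (53.1% of calls higher, or 63.2% when scaled by the total count only). None of the 5 overlapped between the groups, which held for 41.2% of all genes. Klf4 stood at 29.3% of Vehicle (95% interval 22.6 to 37.8; log2 fold change -1.77 ± 0.19 SE, adjusted p = 8.6e-06 by edgeR) and Klf2 at 35.1% (95% interval 30.5 to 40.4; log2 fold change -1.51 ± 0.10 SE, adjusted p = 1.5e-07 by edgeR). Klf5 stood at 43.8% (log2 fold change -1.19 ± 0.08 SE, adjusted p = 1.3e-07 by edgeR), Klf7 at 64.0% (log2 fold change -0.64 ± 0.06 SE, adjusted p = 2.9e-06 by edgeR) and Klf6 at 70.3% (log2 fold change -0.51 ± 0.07 SE, adjusted p = 6.4e-05 by edgeR). This comparison shares its samples with the other two. The log2 fold changes without Klf4 siRNA samples 1 and 4 were -1.80 for Klf4, -1.37 for Klf2, -1.10 for Klf5, -0.61 for Klf7 and -0.60 for Klf6, and all 5 calls held.

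**Figure D3:**
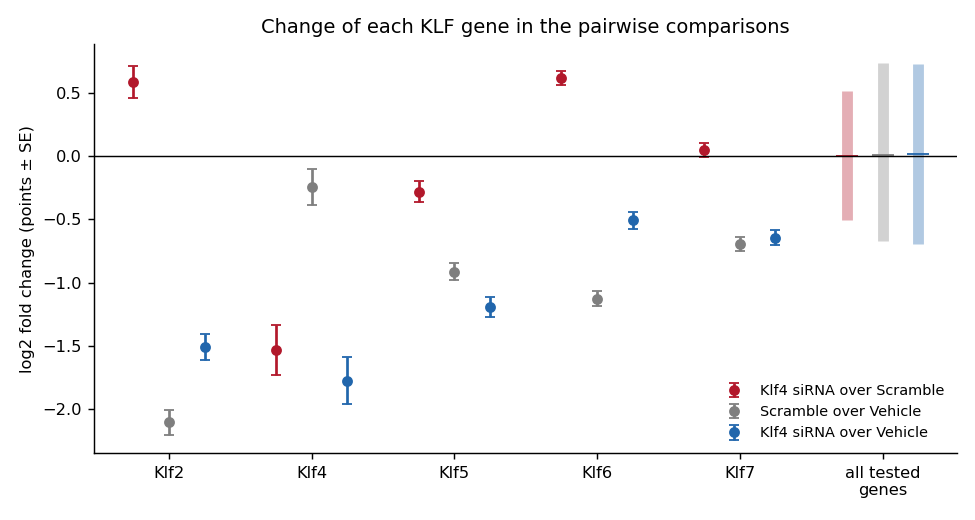
Log2 fold change of each member in the 3 comparisons, with points and bars as the estimate and its SE from edgeR (n = 4 per group); the broad bars at the right span the 5th to the 95th percentile of all genes tested, with the median as a tick. Klf4 is the member with the lowest red point, at -1.53, and Klf2 the one with the lowest grey point, at -2.10.

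As a check that makes no use of a model across genes, each member's log2 CPM was compared by a two-sided exact permutation test over the 70 divisions of 8 samples. The 13 member comparisons called by edgeR all gave an exact permutation p = 0.0286, the smallest this design allows (0.033 after adjustment over 15 tests). Groups that do not overlap always give this value, so for these 13 the test adds nothing to the lack of overlap stated above. Klf4 in Scramble relative to Vehicle gave p = 0.171 and Klf7 with the Klf4 siRNA relative to Scramble gave p = 0.371 in the same exact permutation tests. The authors' deposited table put the same number, 13 of 15, at an FDR under 0.05. The authors' deposited call also required a log2 change of at least 1 in size, and 6 of the 15 met it: Klf4 with the Klf4 siRNA relative to Scramble; Klf2 and Klf6 in Scramble relative to Vehicle; and Klf2, Klf4 and Klf5 with the Klf4 siRNA relative to Vehicle.

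Levels between genes were compared on the deposited RPKM scale, which divides by gene length. With the Klf4 siRNA the order of levels was Klf6 (21.5 ± 1.44 RPKM), Klf2 (6.55 ± 0.899), Klf7 (4.92 ± 0.229), Klf5 (3.53 ± 0.327) and Klf4 (0.453 ± 0.118; SD, n = 4), and no neighbours in this order overlapped. In Scramble, Klf6 (14.1 ± 0.494 RPKM) led and Klf4 (1.32 ± 0.200) came last, while Klf7 (4.78 ± 0.147), Klf2 (4.40 ± 0.645) and Klf5 (4.31 ± 0.278) overlapped, Klf2 being above Klf7 in 2 of 4 samples and above Klf5 in 2 of 4 (SD, n = 4). In Vehicle the order was Klf6 (30.8 ± 2.63 RPKM), Klf2 (18.8 ± 1.53), Klf5 (8.11 ± 0.493), Klf7 (7.74 ± 0.404) and Klf4 (1.57 ± 0.182; SD, n = 4). Klf5 and Klf7 overlapped between Vehicle samples, although Klf5 was above Klf7 within each of the 4, by 1.03 to 1.06 times. By deposited RPKM, Klf2 thus stood second, clear of its neighbours, with the Klf4 siRNA and in Vehicle, and level with Klf7 and Klf5 in Scramble. The length used for Klf7, 8131 bases, includes the 2815 that overlap Gm26649. The effect of that overlap on the RPKM of Klf7, its place in these orders and the sums and shares below was not tested. Klf4 siRNA samples 2 and 3 alone had the same order, with Klf6 at 19.6 to 21.0 RPKM, Klf2 at 7.02 to 7.52, Klf7 at 5.04 to 5.12, Klf5 at 3.69 to 3.89 and Klf4 at 0.304 to 0.590.

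Summed over the 5 genes, the level per length was 36.9 ± 0.770 RPKM (Klf4 siRNA), 28.9 ± 1.05 RPKM (Scramble) and 67.0 ± 4.31 RPKM (Vehicle; SD, n = 4), and the 3 groups did not overlap. Klf6 made up 58.2% ± 3.64 of this sum in Klf4 siRNA samples, 48.8% ± 1.11 of it in Scramble and 45.9% ± 1.95 of it in Vehicle. The share of Klf2 was 17.7% ± 2.34 (Klf4 siRNA), 15.2% ± 1.75 (Scramble) and 28.1% ± 1.59 (Vehicle). Klf4 made up 1.23% ± 0.340 (Klf4 siRNA), 4.57% ± 0.808 (Scramble) and 2.34% ± 0.131 (Vehicle), so its share of the activator KLF transcripts was highest in Scramble. Shares of Klf5 (9.56% in Klf4 siRNA samples, 14.9% in Scramble, 12.1% in Vehicle) and Klf7 (13.3% in Klf4 siRNA samples, 16.6% in Scramble, 11.6% in Vehicle) were also highest in Scramble. Without Klf4 siRNA samples 1 and 4, the other 2 samples of that group summed to 36.1 to 37.8 RPKM, with shares of 54.5 to 55.6% for Klf6, 19.5 to 19.9% for Klf2, 0.806 to 1.63% for Klf4, 10.2 to 10.3% for Klf5 and 13.3 to 14.2% for Klf7.

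**Figure D4:**
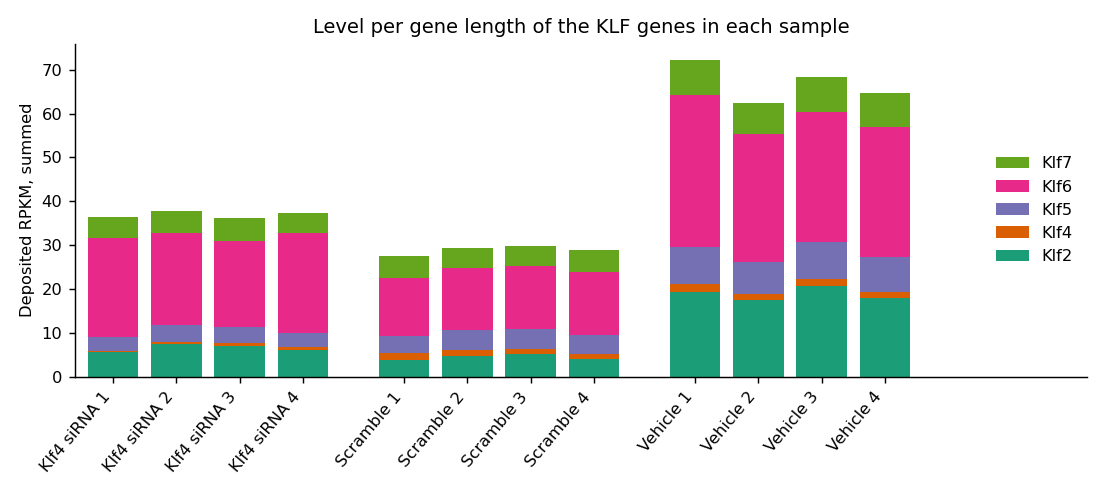
Deposited RPKM of the 5 members stacked for each of the 12 samples, on a linear axis from 0. The stacks reach 36.1 to 37.8 RPKM (Klf4 siRNA), 27.4 to 29.8 RPKM (Scramble) and 62.5 to 72.3 RPKM (Vehicle), with Klf6 as the largest block in every sample.

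Ratios of counts between pairs of members within a sample do not depend on library scaling, and 10 pairs were compared in each of the 3 comparisons by two-sided exact permutation tests. The groups were apart in 26 of 30, each with an exact permutation p = 0.0286, the smallest possible, or 0.033 adjusted over the 30. Groups that do not overlap always give this value, so it adds nothing to the count. Pairs within a comparison share members, so the 30 ratios are not independent. How often ratios of other gene pairs are apart was not tested. Of single genes, 34.7% (Klf4 siRNA relative to Scramble), 48.4% (Scramble relative to Vehicle) and 41.2% (Klf4 siRNA relative to Vehicle) were apart. The log2 ratio of Klf2 to Klf5 was -0.61 ± 0.07 with the Klf4 siRNA, against -1.47 ± 0.13 in Scramble (SD, n = 4), a difference of 0.86. The log2 ratio of Klf6 to Klf7 was 1.24 ± 0.16 with the Klf4 siRNA and 0.67 ± 0.07 in Scramble (SD, n = 4), a difference of 0.57. Klf5 relative to Klf6 changed by -0.90. These differences were 0.92 for Klf2 to Klf5, 0.44 for Klf6 to Klf7 and -0.71 for Klf5 to Klf6 without Klf4 siRNA samples 1 and 4, and the groups were still apart. Klf2 and Klf6 both rose, and their log2 ratio was -2.97 ± 0.28 with the Klf4 siRNA and -2.94 ± 0.19 in Scramble, a difference of -0.03 that did not pass (exact permutation p = 0.771, adjusted p = 0.771); without Klf4 siRNA samples 1 and 4 the difference was 0.20 and the groups still overlapped.

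In Scramble relative to Vehicle, Klf2 fell more than each of the other members: its log2 ratio dropped by 1.84 to Klf4, by 1.19 to Klf5, by 0.98 to Klf6 and by 1.41 to Klf7, with the groups apart for each pair. Klf6 in turn fell more than Klf5 and Klf7 (log2 ratio of Klf6 to Klf7 0.67 ± 0.07 in Scramble and 1.10 ± 0.10 in Vehicle, a difference of -0.43; SD, n = 4). The ratio of Klf4 to Klf7 did not pass (difference 0.44, exact permutation p = 0.0571, adjusted p = 0.0635). With the Klf4 siRNA relative to Vehicle, the ratios of Klf2 to Klf4 (difference 0.28, exact permutation p = 0.429, adjusted p = 0.443) and of Klf6 to Klf7 (difference 0.14, exact permutation p = 0.2, adjusted p = 0.214) did not pass. These 2 differences were 0.50 and 0.01 without Klf4 siRNA samples 1 and 4, and the groups overlapped.

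The members varied together to different degrees. Over the 12 samples, Pearson's r of log2 CPM was 0.95 between Klf2 and Klf7, 0.94 between Klf5 and Klf7 and 0.92 between Klf2 and Klf6, but 0.35 between Klf2 and Klf4 and 0.08 between Klf4 and Klf6. Over the 10 samples without Klf4 siRNA samples 1 and 4, the same values were 0.96, 0.96, 0.98, 0.26 and 0.17. These describe 3 groups of 4 libraries, whose samples share a group's level. Among genes whose log2 CPM averaged 2 or more, 148 of 10961 followed Klf2 at an r of at least 0.95, 203 followed Klf7, 141 followed Klf5 and 107 followed Klf6, against 8 for Klf4. Klf4 itself lay below that level, at 30 to 187 counts per sample. The part of its low counts in this number and in its r with other members was not tested.

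The 3 genes whose pattern over the 12 samples was most like that of Klf4 were Dtl, a substrate receptor of a cullin ubiquitin ligase (r = 0.98), Tab2, an adaptor of the TAK1 kinase (r = 0.98), and Lifr, a subunit of the LIF receptor (r = 0.97). Dtl averaged 137 ± 3.89 CPM (Klf4 siRNA), 176 ± 8.24 CPM (Scramble) and 183 ± 5.60 CPM (Vehicle; SD, n = 4), a smaller step than that of Klf4. Nearest to Klf2 were Ypel3, a growth suppressor induced by p53, and Nupr1, a stress-induced chromatin protein (r = 0.99 each), followed by the selenoprotein gene Selenow (r = 0.99). Mean levels of Ypel3 were 30.2 ± 2.03 CPM (Klf4 siRNA), 24.0 ± 2.12 CPM (Scramble) and 66.8 ± 1.40 CPM (Vehicle; SD, n = 4).

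Klf6 was matched most closely by Pde6h, a phosphodiesterase subunit gene of cones, Dusp6, a phosphatase that turns off ERK, and Arhgdib (r = 0.99 each). Mean levels of Pde6h were 52.3 ± 1.31 CPM (Klf4 siRNA), 28.4 ± 1.73 CPM (Scramble) and 81.3 ± 5.78 CPM (Vehicle; SD, n = 4). Klf5 was matched by Tagln, an actin-binding protein of smooth muscle, Ilk, the integrin-linked kinase, and Manf, a secreted factor induced by ER stress (r = 0.99, 0.98 and 0.98). Klf7 was matched by Sgk1, a kinase induced by serum and glucocorticoids, Cst3, which encodes cystatin C, and Tpm1, a tropomyosin (r = 0.99 each). With Spearman's rank correlation in place of Pearson's, only 2 of these 15 genes stayed among the closest 3. The r of these 15 genes with their members ranged from 0.957 to 0.998 without Klf4 siRNA samples 1 and 4. The 15 were picked for a high r over all 12 samples, the kept ones included, so this range adds no separate support.

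The 8 other KLF genes measured, repressors for the most part, were 3 higher, 2 lower and 3 not called with the Klf4 siRNA relative to Scramble (median log2 fold change 0.04, against -0.00018 over all genes tested, of which 36.0% were called, 18.5% higher and 17.5% lower). Klf11, 1 of the 3, was at 0.19 (adjusted p = 0.0229 by edgeR) and was not called without Klf4 siRNA sample 2 or 4, Scramble sample 1 or 4, or Klf4 siRNA samples 1 and 4 (0.15 to 0.18). Klf10, induced by TGF-beta, rose to 122 ± 6.96 CPM with the Klf4 siRNA, against 87.0 ± 2.32 in Scramble (SD, n = 4; log2 fold change 0.50 ± 0.05 SE, adjusted p = 8.6e-06 by edgeR). Klf9, induced by glucocorticoids and thyroid hormone, rose by 0.32 (SE 0.10, adjusted p = 0.0212 by edgeR) and overlapped between groups. Its call was lost without Klf4 siRNA sample 4 (0.25), without Scramble sample 2 (0.31), 3 (0.29) or 4 (0.29), or without Klf4 siRNA samples 1 and 4 (0.27). Klf12 and Klf16 fell, at log2 fold changes of -0.55 and -0.48 (adjusted p = 0.0149 and 0.00904 by edgeR). Of the same 8, 5 fell, 1 rose and 2 were not called in Scramble relative to Vehicle (median -0.52, against 0.0052 over all genes, of which 53.9% were called). Klf10 (log2 fold change -1.12), Klf11 (-1.07), Klf9 (-0.82) and Klf13 (-0.72) were among those that fell, and Klf8, named after its value was seen, was the one that rose (0.91 ± 0.21 SE, adjusted p = 0.00245 by edgeR). With the Klf4 siRNA relative to Vehicle 6 fell, 1 rose and 1 was not called (median -0.56, against 0.02 over all genes, of which 45.4% were called).

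The related SP factors bind the same GC-rich elements. Of the 6 measured, 1 fell with the Klf4 siRNA relative to Scramble (Sp4, log2 fold change -0.33 ± 0.10 SE, adjusted p = 0.0227 by edgeR) and 5 were not called. Over all genes tested 36.0% were called in this comparison. The call of Sp4 was lost without Klf4 siRNA sample 3 (-0.30) or Scramble sample 2 (-0.28) or 3 (-0.31). Of these 6, 2 fell in Scramble relative to Vehicle (Sp2 at -0.16 and Sp9 at -0.73, adjusted p = 0.0333 and 0.0277 by edgeR), and with the Klf4 siRNA relative to Vehicle 1 fell (Sp2 at -0.34). Over all genes, 53.9% and 45.4% were called in these 2 comparisons. In Scramble relative to Vehicle, the call of Sp2 was lost without Scramble sample 1, 2 or 4 or Vehicle sample 2 (-0.15 to -0.12) and under scaling by upper quartile or total count. That of Sp9 was lost without Scramble sample 1, 2 or 3 or Vehicle sample 2 or 3 (-0.67 to -0.63).

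Upstream of Klf2 and Klf4 in endothelium, the MEK5, ERK5 and MEF2 route had 7 measured genes of 8. Of these, 1 rose, 2 fell and 4 were not called with the Klf4 siRNA relative to Scramble (median log2 fold change 0.08), a share close to the 36.0% of all genes called. Mef2b rose by 0.38 (SE 0.07, adjusted p = 0.00084 by edgeR), while Mapk7, which encodes ERK5, was at -0.23 (SE 0.05, adjusted p = 0.0026 by edgeR) and Mef2a at -0.20 (SE 0.06, adjusted p = 0.0237 by edgeR). The call of Mef2a was lost without Klf4 siRNA sample 2 or 3 or Scramble sample 2 or 3 (-0.19 to -0.17). The route had 1 gene that rose, 3 that fell and 3 not called in Scramble relative to Vehicle. Mef2d (log2 fold change -0.46, adjusted p = 4.3e-06 by edgeR), Map2k5, which encodes MEK5 (-0.38, adjusted p = 0.00014 by edgeR), and Mef2b (-0.17, adjusted p = 0.0421 by edgeR) were the lower ones, and Mapk7 was higher (0.20, adjusted p = 0.00464 by edgeR). The call of Mef2b in that comparison was lost without any 1 of Scramble samples 1 to 3 or of Vehicle samples 1, 2 and 4 (-0.17 to -0.12), and under scaling by upper quartile or total count. Relative to Vehicle, 1 rose (Mef2b, 0.22, not called without Klf4 siRNA sample 3 or Vehicle sample 3), 2 fell and 4 were not called with the Klf4 siRNA. Shares called over all genes were 53.9% in Scramble relative to Vehicle and 45.4% with the Klf4 siRNA relative to Vehicle.

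KLF proteins are short-lived, and 9 ubiquitin ligases and deubiquitinases known to act on them, mostly in human cells, were all measured. Of these, 2 rose, 1 fell and 6 were not called with the Klf4 siRNA relative to Scramble (median log2 fold change 0.05), again close to the 36.0% of all genes called. Fbxo32, an F-box protein reported to target KLF4, averaged 7.34 ± 0.424 CPM (Klf4 siRNA), 3.15 ± 0.590 CPM (Scramble) and 14.4 ± 1.89 CPM (Vehicle; SD, n = 4). Its groups did not overlap, and it rose by 1.24 on the log2 scale with the Klf4 siRNA relative to Scramble (SE 0.13, adjusted p = 1.7e-05 by edgeR) and fell by 2.21 in Scramble relative to Vehicle (SE 0.14, adjusted p = 3.5e-08 by edgeR). Fbxo22, another F-box protein reported to target KLF4, rose by 0.22 with the Klf4 siRNA relative to Scramble (± 0.07 SE, adjusted p = 0.0235 by edgeR). This call was lost without Klf4 siRNA sample 2 (0.20) or Scramble sample 1 (0.21) or 3 (0.20). Wwp1, which targets KLF2 and KLF5, was at -0.19 (adjusted p = 0.0149 by edgeR; not called without Scramble sample 3, at -0.16) with the Klf4 siRNA relative to Scramble and at 0.32 (adjusted p = 0.00137 by edgeR) in Scramble relative to Vehicle. The whole list had 2 higher, 1 lower and 6 not called in Scramble relative to Vehicle, where 53.9% of all genes were called. Vhl, the other of the 2 higher ones (0.14, adjusted p = 0.0311 by edgeR), was not called without Scramble sample 2 or 3 or Vehicle sample 2 or 3 (0.12 to 0.15). Relative to Vehicle, 1 rose, 1 fell and 7 were not called with the Klf4 siRNA, where 45.4% of all genes were called. Of the 4 acetyltransferase coactivators 1 fell with the Klf4 siRNA relative to Scramble (Kat2b, which encodes PCAF, at -0.40 ± 0.06 SE, adjusted p = 0.00044 by edgeR). In Scramble relative to Vehicle 1 fell (Crebbp, which encodes CBP, at -0.29 ± 0.08 SE, adjusted p = 0.0106 by edgeR). Both of these fell with the Klf4 siRNA relative to Vehicle (Kat2b at -0.45 and Crebbp at -0.37). Over all genes, 36.0%, 53.9% and 45.4% were called in these 3 comparisons, in that order.

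Of 14 genes reported elsewhere as KLF4 targets, 12 were measured. The list mixes genes that KLF4 is reported to activate, such as Cdkn1a, and to repress, such as Bax. Its counts by direction and its median therefore do not measure a loss of KLF4 activity. Relative to Scramble, 4 rose, 2 fell and 6 were not called with the Klf4 siRNA (median log2 fold change 0.05, or -0.01 without Klf4 siRNA samples 1 and 4), where 36.0% of all genes were called. Cdkn1a, which encodes the cell cycle inhibitor p21 and is known to be activated by KLF4, was higher in every Klf4 siRNA sample, at 416 ± 9.65 CPM with the Klf4 siRNA and 222 ± 9.30 in Scramble (SD, n = 4; log2 fold change 0.91 ± 0.04 SE, adjusted p = 9.8e-09 by edgeR). Bax, a pro-apoptotic gene that KLF4 is reported to repress, rose by 0.56 (SE 0.04, adjusted p = 9.1e-07 by edgeR). Ccnb1, which encodes cyclin B1, rose by 0.17 (adjusted p = 0.00334 by edgeR). Trp53, which encodes p53, was at 0.15 (adjusted p = 0.0415 by edgeR), a call that did not hold in 8 of 16 alternatives, among them those without Klf4 siRNA sample 1, 2 or 3 or Scramble sample 2, 3 or 4 (0.12 to 0.16). Ccne1, which encodes cyclin E1, was at -0.17 (adjusted p = 0.0233 by edgeR), and its call did not hold in 4 of 16, among them those without Klf4 siRNA sample 4 or Scramble sample 1 or 4 (-0.16 to -0.14). Tagln was lower (log2 fold change -0.49 ± 0.12 SE, adjusted p = 0.00775 by edgeR) with overlapping groups. It was not called without Klf4 siRNA samples 1 and 4 (-0.35, adjusted p = 0.0573 by edgeR). Scramble relative to Vehicle had 3 that rose, 5 that fell and 4 not called, where 53.9% of all genes were called. The smooth muscle genes Acta2 (log2 fold change -4.22, adjusted p = 4.3e-13 by edgeR) and Tagln (-2.82, adjusted p = 8.3e-12 by edgeR) were far lower, at 37.0 ± 3.95 and 13.8 ± 1.69 CPM in Scramble and 691 ± 35.4 and 96.8 ± 2.10 CPM in Vehicle (SD, n = 4). Markers of fibroblasts and pericytes, 5 measured of 7, summed to 95.1 to 109 CPM (Klf4 siRNA), 120 to 128 CPM (Scramble) and 168 to 178 CPM (Vehicle), and their part in these differences was not tested. Of the 12, 4 rose, 2 fell and 6 were not called with the Klf4 siRNA relative to Vehicle, where 45.4% of all genes were called.

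Targets reported for the other members overlap with that list, and Cdkn1a stands in 4 of the 5 target lists. Of 7 measured KLF6 targets, 4 rose, 2 fell and 1 was not called with the Klf4 siRNA relative to Scramble (median log2 fold change 0.24), where 36.0% of all genes were called. Atf3, a stress-induced transcription factor, rose by 0.99 (SE 0.08, adjusted p = 1.9e-06 by edgeR) and the TGF-beta receptor gene Tgfbr2 by 0.24 (SE 0.05, adjusted p = 0.00405 by edgeR; 0.0611 with all 12 samples in 1 fit). Col1a1, a collagen gene, fell by 1.44 on the log2 scale (SE 0.17, adjusted p = 3.7e-05 by edgeR). Tgfbr1, another TGF-beta receptor gene, was at -0.21 (adjusted p = 0.0298 by edgeR) and was not called without Klf4 siRNA sample 2 or 3 or Scramble sample 3 or 4 (-0.21 to -0.17). In Scramble relative to Vehicle 1 of these 7 rose, 2 fell and 4 were not called, where 53.9% of all genes were called. Atf3 was at -2.40 (SE 0.06, adjusted p = 4.1e-12 by edgeR) in that comparison. Relative to Vehicle, 3 rose, 3 fell and 1 was not called with the Klf4 siRNA, where 45.4% of all genes were called. Here the call of Tgfbr1 (-0.25) did not hold without Klf4 siRNA sample 2, without Vehicle sample 1, 3 or 4, or under scaling by the total count (-0.25 to -0.20).

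Of 7 tested KLF5 targets, 2 rose, 1 fell and 4 were not called with the Klf4 siRNA relative to Scramble. This share is close to the 36.0% of all genes called. Egr1, an immediate-early factor, rose by 0.38 (SE 0.07, adjusted p = 0.00111 by edgeR; not called with all 12 samples in 1 fit, adjusted p = 0.0972). In Scramble relative to Vehicle, 3 of 8 tested rose, 4 fell and 1 was not called, with Egr1 at -2.84 (SE 0.19, adjusted p = 5.8e-08 by edgeR) and Fgfbp1, a carrier of fibroblast growth factors, at -2.40 (SE 0.18, adjusted p = 1.8e-07 by edgeR). Of these 8, 2 rose, 4 fell and 2 were not called with the Klf4 siRNA relative to Vehicle. Over all genes, 53.9% were called in Scramble relative to Vehicle and 45.4% with the Klf4 siRNA relative to Vehicle. Of 4 tested KLF2 targets 1 rose, Cdkn1a, and 3 were not called with the Klf4 siRNA relative to Scramble. In Scramble relative to Vehicle 1 rose, 1 fell and 2 were not called. Over all genes, 36.0% and 53.9% were called in these 2 comparisons. Nos3, the endothelial nitric oxide synthase gene that KLF2 activates in endothelium, was higher in Scramble than in Vehicle, at 3.90 ± 0.569 CPM in Scramble and 2.47 ± 0.176 in Vehicle (SD, n = 4; log2 fold change 0.66 ± 0.14 SE, adjusted p = 0.00162 by edgeR). Nos3 and Cdkn1a, the 2 KLF2 targets tested with the Klf4 siRNA relative to Vehicle, both rose, where 24.1% of all genes were called higher.

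Of 5 tested genes reported as KLF7 targets or tied to axon growth, 2 rose (Cdkn1a and Sprr1a) and 3 were not called with the Klf4 siRNA relative to Scramble. This is close to the 36.0% of all genes called. Sprr1a, a gene induced in regenerating axons, averaged 0.966 ± 0.258 CPM (Klf4 siRNA), 0.232 ± 0.0679 CPM (Scramble) and 1.02 ± 0.175 CPM (Vehicle; SD, n = 4), with log2 fold changes of 2.03 (SE 0.34, adjusted p = 0.00049 by edgeR) relative to Scramble and -2.10 (SE 0.30, adjusted p = 5.8e-05 by edgeR) for Scramble relative to Vehicle. Its level in Scramble was near the floor. Sprr1a may have passed the filter on low counts only through the group where it was high, so its calls are weak support. L1cam, an adhesion molecule of growing axons that KLF7 activates in mouse sensory neurons, rose in Scramble relative to Vehicle by 1.34 (SE 0.34, adjusted p = 0.00416 by edgeR), at 1.24 ± 0.356 CPM in Scramble and 0.480 ± 0.252 in Vehicle (SD, n = 4). In that comparison 1 of the 4 tested rose, 2 fell and 1 was not called, where 53.9% of all genes were called. Relative to Vehicle, 2 of 5 rose and 3 were not called with the Klf4 siRNA, where 45.4% of all genes were called.

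**Figure D5:**
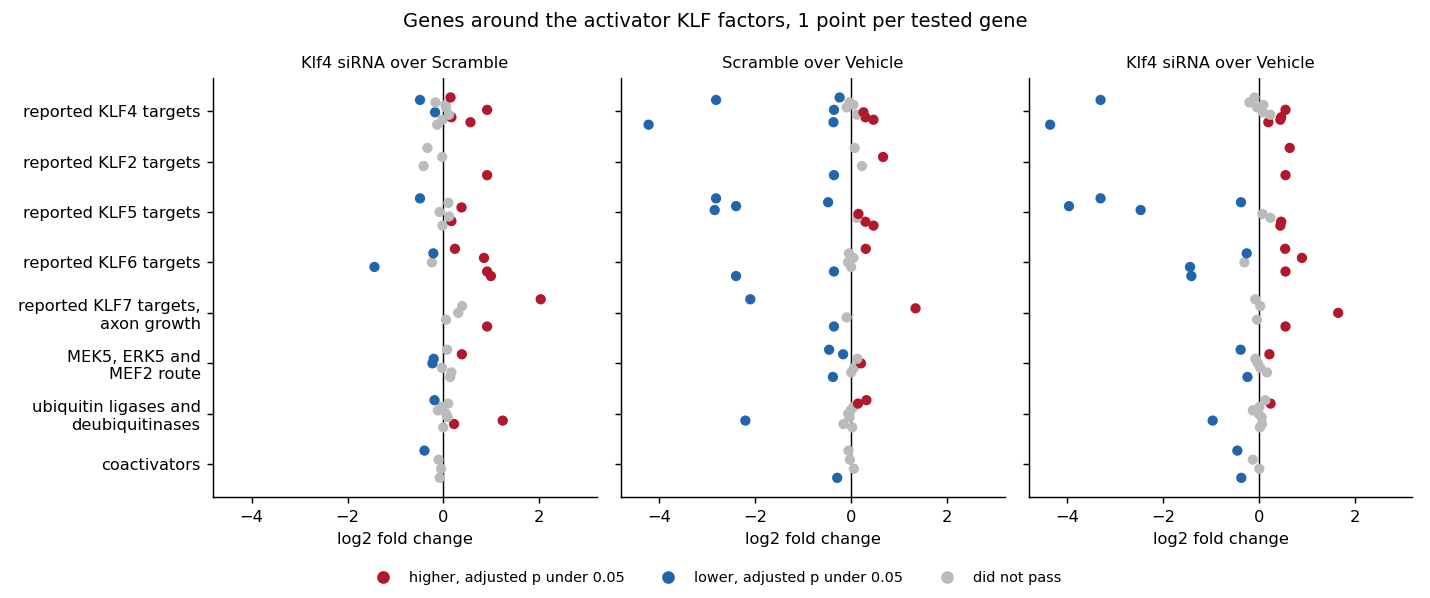
Log2 fold change of each tested gene in the lists around the activator KLF factors, 1 point per gene and comparison, coloured by the edgeR call at an adjusted p under 0.05. Most points of the upstream, ubiquitin and coactivator lists lie near 0, and the lowest point of Scramble relative to Vehicle is Acta2 at -4.22.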

How the data were processed

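RNA was sequenced from 12 samples of GT1-7 cells, 4 per group by their titles, with a Takara SMART-Seq kit per the labels' protocols. The authors deposited 1 table per pair of groups, with raw counts for every gene and sample (per the file headers). The tools in the submitters' processing notes are STAR, STAR-Fusion, Subread, FastQC and edgeR, and the build is mm10. For their roles and versions, the siRNA sequences and the filter behind the listed genes, the sources used here give nothing. The deposited RPKM values divide counts by gene length and library size, and were used to compare genes. The log2 fold changes, the p-values with their FDR and a call score per gene are the authors' own, per the file headers, and were used only where named.

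Counts were tested with edgeR 4.0.16 (quasi-likelihood, TMM, default filter on low counts) in R 4.3.3, over all genes, in the 8 samples of each pair without a block, with Benjamini-Hochberg adjustment. CPM was scaled by TMM over the 12 samples. The SE is the log2 fold change over the square root of F. Intervals are normal at 95% on the log2 scale. The edgeR script was tested on simulated data. Exact permutation tests used SciPy 1.17.1. Total counts ranged from 25992363 to 39674984, and the common biological coefficient of variation of the 3 pairs lay between 7.3% and 9.01%. Intervals cover the spread between samples. Replicates of a group differed by more than sampling noise.

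Named genes were the 5 members, the 3 genes most like each (Pearson's r of log2 CPM, prior count 0.5, mean log2 CPM of at least 2, no gene models or pseudogenes), and up to 4 called genes of each list with the smallest p. The lists were other KLF and SP genes, the MEK5, ERK5 and MEF2 route, ubiquitin enzymes, coactivators, reported targets of each member and cell type markers. The members and lists were chosen with earlier results of these data known. Genes were matched by name, positions came from GENCODE M21, and promoter sequences came from RefSeq (GRCm38.p6), which matched 4 of the 5 members; Klf5 is named only. Alternatives were other scalings (DESeq2 size factors, upper quartile, total count), DESeq2 1.42.0, no filter, all 12 samples in 1 fit, a replicate block, and samples left out.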

Additional observations from a re-analysis of the deposited data

Results flagged for a closer look

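Of the 15 combinations of member and group, 1 had a sample far from the others of its group. Klf6 in Vehicle sample 1 was at 152.4 CPM, while the other 3 Vehicle samples lay between 127.7 and 130.2 CPM, and the gap was over Dixon's 95% critical value for 4 samples. Chance flags about 1 in 20 groups of this kind. Without that sample both comparisons of Klf6 with Vehicle were still called.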

How the results depend on the processing

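Of 235 recomputed member results, 232 kept their direction and their side of the threshold, 3 lost the call and none reversed. All 3 concern Klf5 with the Klf4 siRNA relative to Scramble: the log2 fold change of -0.28 ranged from -0.33 to -0.23 when 1 sample was left out, and lost the call without Scramble sample 2 or 3, and it was -0.18 (adjusted p = 0.112 by edgeR) without Klf4 siRNA samples 1 and 4, with adjusted p from 0.0054 to 0.112 over all alternatives; the cause was not tested. Counts of called genes stayed within 1.5 times: leaving out 1 sample gave 3531 to 4634 for Klf4 siRNA relative to Scramble, 6085 to 6755 for Scramble relative to Vehicle and 4899 to 5654 for Klf4 siRNA relative to Vehicle. With Spearman's rank correlation 2 of the 15 closest genes were shared with Pearson's; the cause was not tested. Of 140 calls of listed genes, markers included, 114 held under every alternative (applied to them after seeing the data), 26 were lost at least once and none reversed. Without Klf4 siRNA samples 1 and 4, the KLF5 target list had 3 higher and 0 lower genes relative to Scramble, and the SP list 2 lower genes. Sample numbers were not taken to pair the samples, since in no comparison did every same-numbered pair correlate over 0.1 in its deviations: the range was -0.32 to 0.155 for Klf4 siRNA and Scramble, -0.341 to -0.0344 for Scramble and Vehicle, and -0.0528 to 0.302 for Klf4 siRNA and Vehicle, where 3 of 4 were over 0.1. A replicate block gave 3880, 6143 and 5968 called genes in the order above, against 4561, 6810 and 5755 without it, and changed no call of a member, with Klf4 at -1.54 relative to Scramble. Of the listed genes it removed the calls of Ccne1, Csf1r, Klf11, Mef2a and Trp53 with the Klf4 siRNA relative to Scramble and of Dcn, Mbp, Mef2b, Sp2, Sp9 and Vhl in Scramble relative to Vehicle. Klf4, at 30 to 187 counts per sample, is the member whose level depth limits most.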
